A study of Mus musculus with 53 samples.

Results

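Neurexins bind neuroligins and leucine-rich repeat transmembrane (LRRTM) proteins across the synaptic cleft. The genes described here are Nrxn2 and Nrxn3, Nlgn1, Nlgn2 and Nlgn3, and Lrrtm1, Lrrtm2, Lrrtm3 and Lrrtm4. They were taken by name as trans-synaptic adhesion genes, 9 of the 32938 gene IDs that had a symbol and lengths, among 37991 IDs in all. All 9 were measured and all were above 0.

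The values come from cortex of C57bl/6 mouse embryos at stage E16.5, in tissue labelled as an unstimulated control, for which the labels name no agent or modified allele. The study sequenced messenger RNA in 53 libraries of 19 groups, in work on histone turnover and transcription in neurons. Of these, 3 libraries are embryonic cortex, and they were deposited as 1 authors' mean per gene, so the spread between libraries is not known and nothing was tested. The other 50 libraries are not analysed here, and no condition is set against another. The low values gave estimated library depths of 51.3, 64.8 and 71.6 M reads, together 188 M. Levels in RPM are reads per M library reads, with M the mega prefix used for the depths. A gene with 0 reads could still stand at up to 0.0160 RPM, the limit that 3 reads give. The tissue carried the transcripts its label names: all 7 cortical excitatory neuron markers and all 8 cortical progenitor markers reached 1 RPKM per kilobase of whole gene, against 0 of 8 thalamic and hindbrain markers, 3 of which were listed at 0. Interneuron markers reached it in 5 of 7 genes, red blood cell markers in 4 of 6 and endothelial and pericyte markers in 2 of 6. Astrocyte and oligodendrocyte markers did so in 2 of 9 genes and microglial markers in 1 of 6, where 21.0% of all genes did. Per kilobase of exon 7 of 7 interneuron, 5 of 6 red blood cell and 6 of 6 endothelial and pericyte markers reached 1 RPKM. So did 7 of 9 astrocyte and oligodendrocyte and 5 of 6 microglial markers, where 35.4% of all genes did. Thalamic and hindbrain markers again did so in 0 of 8. The part of these cell types in the levels below was not tested. In bulk tissue, fewer cells of a type and less RNA per cell cannot be told apart.

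Neurexins are presynaptic receptors with a single pass through the membrane. Each gene makes long alpha and short beta forms from separate promoters and many splice forms, which 1 value per gene does not separate. Neuroligins and LRRTMs are 2 unrelated families of postsynaptic ligands that bind neurexins. Among neuroligins, Nlgn1 protein is known mainly from excitatory synapses, Nlgn2 protein from inhibitory synapses and Nlgn3 protein from both. LRRTM proteins are known from excitatory synapses. Cortex at this age is late in neuron production, before most synapses form.

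Each level is given on 3 scales. The first is the deposited RPKM, RPM per kilobase of the gene from end to end, with introns. The second is RPM, the deposited value times the span of the gene in kilobases. The third is RPM per kilobase of exon, with the exons of all annotated transcripts joined, and takes all reads of a gene to lie in its exons. Spans and exons are those of GENCODE M21. Spans ran from 6.02 kb for Lrrtm2 to 1612 kb for Nrxn3, and the members' median span of 125 kb stands against 22.7 kb over 17140 protein-coding genes above 0. Exons made up 0.777% of the span of Lrrtm4 and 0.782% of that of Nrxn3, but 39.5% of that of Nlgn2 and 100% of that of Lrrtm2.

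The promoter letters of the highest and the lowest member are shown because these genes bound the range on all 3 scales. Each line gives the 250 bases before the RefSeq start of the gene, 5′ to 3′ on the gene's strand, with every CG in capitals. They are RefSeq sequences on GRCm38.p6, a later build than the authors' mm9. The Nlgn2 window is chr11:69837785-69838034 on the minus strand and the Lrrtm4 window is chr6:80018627-80018876 on the plus strand, and neither overlaps an annotated exon.
Nlgn2: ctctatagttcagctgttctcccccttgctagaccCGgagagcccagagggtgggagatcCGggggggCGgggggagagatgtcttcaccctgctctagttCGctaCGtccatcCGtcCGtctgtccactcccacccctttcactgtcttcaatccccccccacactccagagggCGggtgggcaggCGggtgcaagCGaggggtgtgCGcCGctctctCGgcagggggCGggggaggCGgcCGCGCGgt
Lrrtm4: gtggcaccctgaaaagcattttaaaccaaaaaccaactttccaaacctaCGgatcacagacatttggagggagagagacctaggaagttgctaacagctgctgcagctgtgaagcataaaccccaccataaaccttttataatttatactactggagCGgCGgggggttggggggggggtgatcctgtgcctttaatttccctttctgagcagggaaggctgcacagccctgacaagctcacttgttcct
The Nlgn2 window held 18 CG steps and 67.6% G or C, and 21.6% of the most 5′ promoters of 27025 genes held as many or more. The Lrrtm4 window held 3 CG steps and 49.2% G or C, and 70.4% of those promoters held as many or more. The letters GGGCGG, read on both strands, were in the Nlgn2 window and in 33.0% of all promoters, and were not in the Lrrtm4 window. The letters TATAAA, read on both strands, were in the Lrrtm4 window and in 13.0% of all promoters, and were not in the Nlgn2 window. These matches describe letters only.

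Nlgn2 was the highest member on every scale and Lrrtm4 the lowest. By deposited RPKM per kilobase of whole gene, 5 of the 9 members reached 1 RPKM, where 21.0% of all genes and 31.6% of protein-coding genes did. Per kilobase of exon all 9 reached 1 RPKM, where 35.4% of all genes and 54.0% of protein-coding genes did. All 9 also reached 1 RPM, as did 39.7% of all genes and 61.9% of protein-coding genes. The members' median was 1.53 RPKM per kilobase of whole gene, against 0.221 over the 22715 genes above 0 and 0.450 over protein-coding genes above 0. The members' median exceeded that of genes above 0 by 2.34 on the log2(RPKM + 0.1) scale. Without the highest member of each family, a check that can only lower it, the difference turned to -0.90. Per kilobase of exon the medians were 7.91 RPKM for the members, 1.163 for genes above 0 and 3.001 for protein-coding genes above 0.

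**Figure D1:**
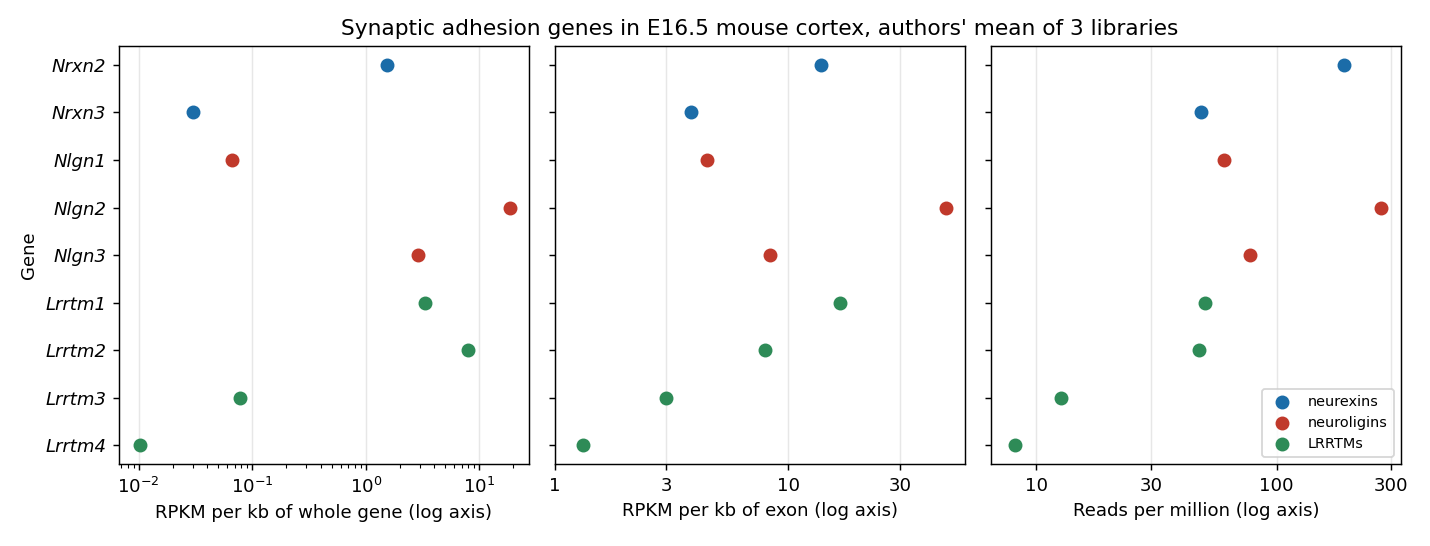
Levels of the 9 genes as deposited per kilobase of whole gene, per kilobase of exon and in RPM, each on its own log axis. Points are the authors' mean of 3 libraries, coloured by family, and bars, mostly hidden by the points, are 95% counting intervals. Nlgn2 is rightmost and Lrrtm4 leftmost in all 3 panels, while the spread shrinks from 1814-fold per kilobase of whole gene to 35.7-fold per kilobase of exon.

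The neurexin genes differed several-fold. Nrxn2 (ENSMUSG00000033768, chromosome 19), which encodes a presynaptic receptor for neuroligins and LRRTMs, stood at 1.53 RPKM per kilobase of whole gene (95% counting interval 1.51 to 1.54). Its 191 RPM, an estimated 35928 reads, were the second highest number of reads among the 9. Per kilobase of exon Nrxn2 stood at 13.9 RPKM, and at 28.7 per kilobase of its longest transcript, since its 18 annotated transcripts join into 13.8 kb of exon while the longest has 6.67 kb. Nrxn2 lay at percentile 75.7 of genes above 0 by deposited RPKM and at percentile 96.3 by RPM.

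Nrxn3 (ENSMUSG00000066392, chromosome 12), the longest gene of the 9 and another presynaptic receptor of the family, stood at 0.0301 RPKM per kilobase of whole gene (0.0295 to 0.0307). That value is spread over 1612 kb, and the gene had 48.5 RPM, an estimated 9098 reads. Per kilobase of exon Nrxn3 stood at 3.85 RPKM (3.77 to 3.93). Its percentile among genes above 0 was 28.8 by deposited RPKM, 64.5 per kilobase of exon and 81.0 by RPM, so a gene low by the deposited value had more reads than most. Nrxn2 was 50.7-fold above Nrxn3 per kilobase of whole gene and 3.60-fold above it per kilobase of exon (3.52 to 3.69, counting error only).

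Neuroligin transcript levels per kilobase were mostly those of Nlgn2. Nlgn2 (ENSMUSG00000051790, chromosome 11), the neuroligin of inhibitory synapses, stood at 18.6 RPKM per kilobase of whole gene (18.4 to 18.8), at 47.1 RPKM per kilobase of exon and at 273 RPM, an estimated 51190 reads. It lay at percentile 97.9, 97.2 and 98.0 of genes above 0 on these scales in turn. Nlgn2 held 86.3% of the 3 neuroligins' summed RPKM per kilobase of whole gene, 78.6% of their sum per kilobase of exon and 66.4% of their summed RPM.

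Nlgn3 (ENSMUSG00000031302, chromosome X), found at both kinds of synapse, stood at 2.90 RPKM per kilobase of whole gene, at 8.37 RPKM per kilobase of exon and at 77.6 RPM. With the RefSeq span of 22.2 kb in place of 26.8 kb it had 64.2 RPM. An annotated transcript of Gm21986 on the same strand covers 41.2% of the exon bases of Nlgn3. Gm21986 was not among the gene IDs with a deposited value, and reads there cannot be told apart. Nlgn2 exceeded Nlgn3 by 6.42-fold per kilobase of whole gene and by 5.63-fold per kilobase of exon.

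Nlgn1 (ENSMUSG00000063887, chromosome 3), the neuroligin of excitatory synapses, stood at 0.0665 RPKM per kilobase of whole gene (0.0653 to 0.0677) over a span of 906 kb. It had 60.3 RPM, an estimated 11312 reads, and 4.49 RPKM per kilobase of exon. Nlgn2 exceeded Nlgn1 by 280-fold per kilobase of whole gene, by 10.5-fold per kilobase of exon and by 4.53-fold in RPM. Nlgn3 exceeded Nlgn1 by 43.6-fold per kilobase of whole gene but by 1.86-fold per kilobase of exon (0.536 as Nlgn1 over Nlgn3, interval 0.523 to 0.550). The order of the 3 neuroligins was thus the same on every scale and only its steepness differed. The antisense gene A830092H15Rik, at 9.97 RPM, shares 9.16% of the exon bases of Nlgn1, and the sources used here do not say whether counting used strand.

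Lrrtm1 and Lrrtm2 stood above Lrrtm3, and Lrrtm3 above Lrrtm4, on all 3 scales. Lrrtm1 (ENSMUSG00000060780, chromosome 6) encodes a neurexin ligand of excitatory synapses. It stood at 3.33 RPKM per kilobase of whole gene (3.26 to 3.40), at 16.6 RPKM per kilobase of exon and at 50.3 RPM, an estimated 9440 reads. RefSeq gives Lrrtm1 a span of 30.7 kb in place of 15.1 kb, with which the same deposited value would be 102 RPM and 33.7 RPKM per kilobase of exon.

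Lrrtm2 (ENSMUSG00000071862, chromosome 18), another excitatory neurexin ligand and the shortest gene of the 9, stood at 7.91 RPKM per kilobase of whole gene (7.75 to 8.08). Its annotated exons cover the whole span, so its level per kilobase of exon is the same number. It had 47.6 RPM, an estimated 8942 reads. Lrrtm2 exceeded Lrrtm1 by 2.38-fold per kilobase of whole gene, whereas per kilobase of exon Lrrtm1 exceeded Lrrtm2 by 2.10-fold (2.04 to 2.16). In RPM the ratio of Lrrtm1 to Lrrtm2 was 1.06.

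Lrrtm3 (ENSMUSG00000042846, chromosome 10), a further LRRTM that binds neurexins, stood at 0.0785 RPKM per kilobase of whole gene, at 2.99 RPKM per kilobase of exon (2.87 to 3.11) and at 12.7 RPM, an estimated 2385 reads. Lrrtm4 (ENSMUSG00000052581, chromosome 6), which also binds heparan sulfate proteoglycans, stood at 0.0103 RPKM per kilobase of whole gene, at 1.32 RPKM per kilobase of exon (1.25 to 1.39) and at 8.11 RPM, an estimated 1523 reads. Both were thus far above the limit that a count of 0 allows. Lrrtm1 exceeded Lrrtm4 by 325-fold per kilobase of whole gene and by 12.6-fold per kilobase of exon. Lrrtm3 exceeded Lrrtm4 by 7.66-fold per kilobase of whole gene and by 2.27-fold per kilobase of exon. The antisense gene Gm4409 shares 25.1% of the exon bases of Lrrtm4 but stood at 0.00980 RPM itself.

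The order of the 9 genes depended on the scale. By deposited RPKM it ran Nlgn2, Lrrtm2, Lrrtm1, Nlgn3, Nrxn2, Lrrtm3, Nlgn1, Nrxn3 and Lrrtm4, with a 19.4-fold step between Nrxn2 and Lrrtm3. Per kilobase of exon it ran Nlgn2, Lrrtm1, Nrxn2, Nlgn3, Lrrtm2, Nlgn1, Nrxn3, Lrrtm3 and Lrrtm4, and no step exceeded the 2.84-fold one between Nlgn2 and Lrrtm1. Nlgn3 and Lrrtm2, neighbours in that order, differed by 1.06-fold (1.03 to 1.09). In RPM the ratio of Nrxn3 to its next neighbour Lrrtm2 was 1.02 (0.988 to 1.05), within counting error. The other steps exceeded counting error, but the order also turned in places with the annotated length used. With RefSeq spans Nlgn3 stood at 6.93 RPKM per kilobase of exon, below Lrrtm2 at 7.91. In RPM with those spans Lrrtm1 at 102 stood above Nlgn3 at 64.2. Per kilobase of the longest transcript Nrxn2 at 28.7 RPKM passed Lrrtm1 at 17.0, and Nrxn3 at 6.12 passed Nlgn1 at 5.10. Whether neighbours differ by more than the spread between libraries cannot be seen from a mean.

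Long members were low by the deposited value. Across the 9 genes Spearman's rho between span and RPKM per kilobase of whole gene was -0.93, where span is also the divisor of that value, and over 17140 protein-coding genes above 0 it was -0.23. Between span and RPKM per kilobase of exon it was -0.68 over the 9 genes and 0.07 over the protein-coding genes, and between span and RPM it was -0.30 over the 9 genes and 0.24 over the protein-coding genes. Genes are not independent replicates and 9 is few, so these are descriptions. Compared with protein-coding genes of similar span, Nlgn2, Lrrtm1 and Nrxn2 lay above the upper quartile per kilobase of exon.

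**Figure D2:**
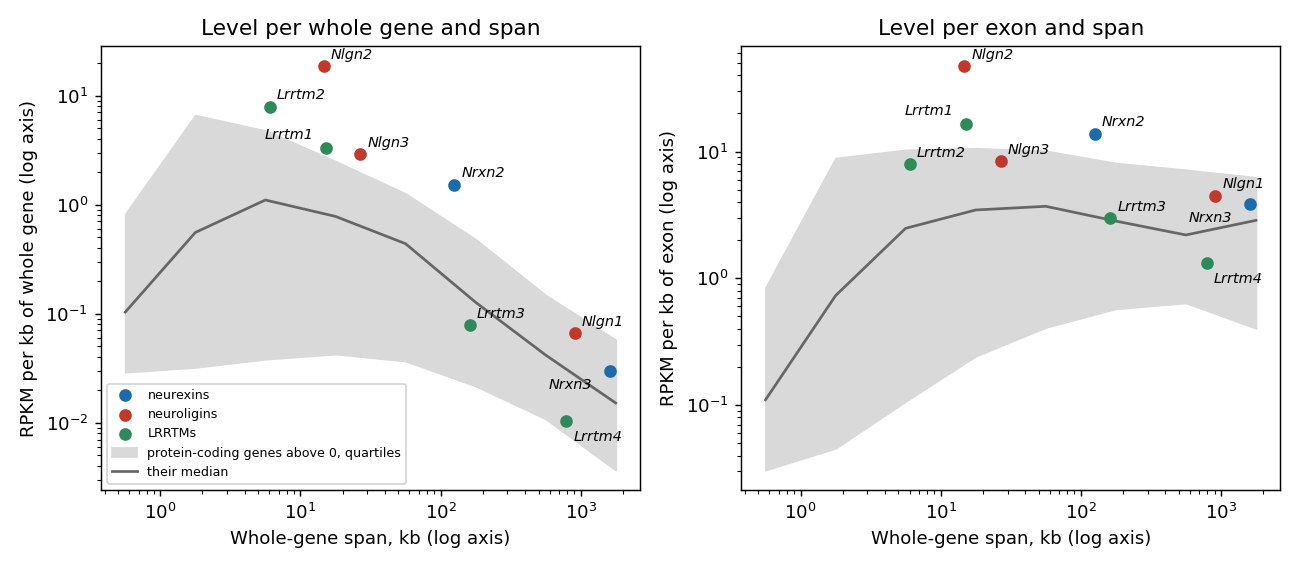
Level against whole-gene span on log axes, per kilobase of whole gene on the left and per kilobase of exon on the right. Coloured points are the 9 genes by family, the grey band and line are the quartiles and median of protein-coding genes above 0 in bins of span. The median falls to 0.0151 RPKM for the longest bin on the left, while on the right it stays at 2.86 RPKM there, and Nlgn1 and Nrxn3 move from the lower part of the plot towards the other members.

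The family medians changed order with the scale. The neurexin median minus the neuroligin median was -2.70 on the log2(RPKM + 0.1) scale per kilobase of whole gene, and -0.19 per kilobase of exon. Medians of unlogged values per kilobase of exon stood the other way, at 8.85 RPKM for neurexins and 8.37 RPKM for neuroligins. In RPM the log2 difference turned to 0.31 and per kilobase of the longest transcript to 0.54. No order of these 2 families can thus be given. The neuroligin median exceeded the LRRTM median by 1.94 on the log2 scale per kilobase of whole gene and by 0.77 per kilobase of exon, and stayed above it on every scale tried. Summed over members, neuroligins had 60.0 RPKM per kilobase of exon and LRRTMs 28.8 RPKM, and the 2 neurexin genes 17.7 RPKM. The order of these sums also depended on the scale, since in summed RPM neuroligins had 411, the 2 neurexin genes 239.9 and LRRTMs 119.

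Lrrtm1, Lrrtm2 and Lrrtm3 each lie inside an alpha-catenin gene on the opposite strand. Alpha-catenins link cadherin adhesion to actin. Lrrtm1 lies within Ctnna2, Lrrtm2 within Ctnna1 and Lrrtm3 within Ctnna3. Lrrtm2 starts 68 bases from an annotated Ctnna1 start and shares 95 exon bases with it, while Lrrtm1 and Lrrtm3 share no exon base with their hosts and start 98.7 kb and 269 kb from the nearest host start.

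**Figure D3:**
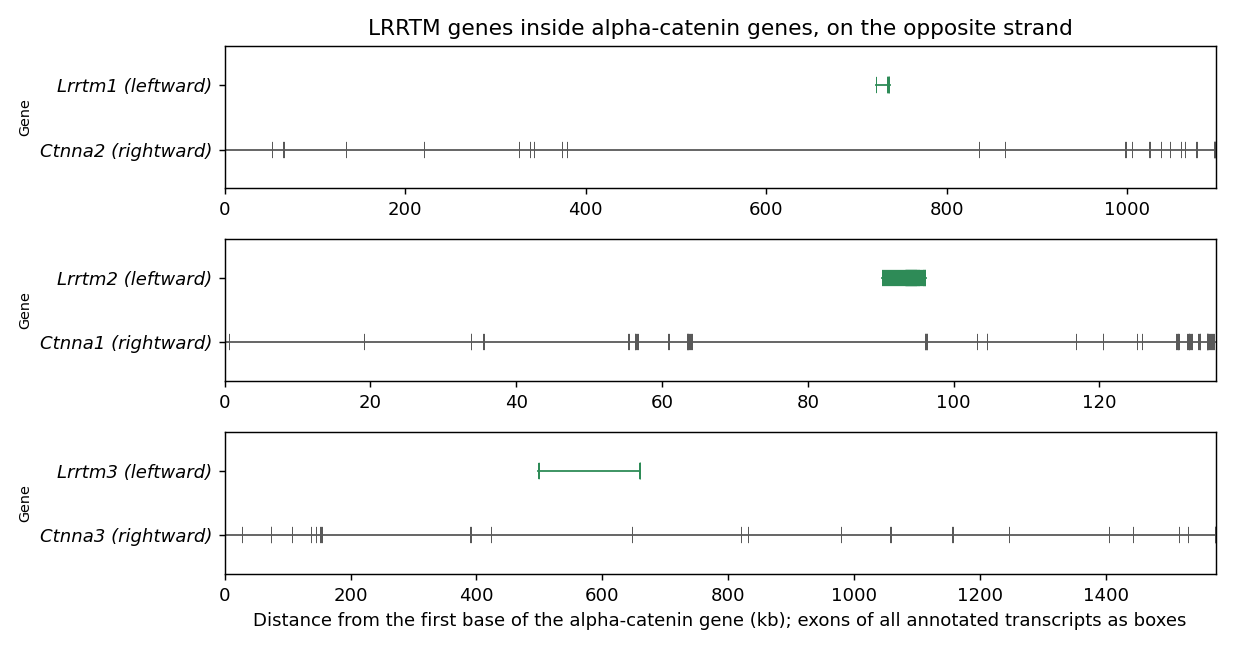
Positions of the exons of Lrrtm1, Lrrtm2 and Lrrtm3 (green, upper rows) and of the alpha-catenin genes around them (grey, lower rows), in kb from the first base of the alpha-catenin gene, GENCODE M21. Boxes are exons of all annotated transcripts, drawn no narrower than a thin line. Lrrtm2 meets an exon of Ctnna1 that lies inside the gene and holds an annotated start, and the span of Lrrtm3 holds an exon of Ctnna3 without overlapping exons.

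Host levels ranged more widely than those of the genes inside them. Ctnna2, the neuronal alpha-catenin gene, stood at 33.7 RPKM per kilobase of exon, and Lrrtm1 at 0.492 times that. Ctnna1 stood at 11.3 RPKM per kilobase of exon, and Lrrtm2 at 0.703 times that. Ctnna3 stood at 0.0309 RPKM per kilobase of exon, and Lrrtm3 was 96.8-fold above it. In reads, Lrrtm3 had 12.7 RPM and Ctnna3 0.223 RPM, so the reads of Lrrtm3 were not counted for the gene around it. For Lrrtm2 and Ctnna1 reads in the 95 shared bases cannot be told apart without strand.

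A further 93 genes of 12 lists cover other ligands, blockers and scaffolds of neurexins and neuroligins, other synaptic adhesion systems, splicing regulators and proteases. Per kilobase of exon the 9 genes had a median of 7.91 RPKM and the 93 genes one of 7.98. Per kilobase of whole gene the medians were 1.53 RPKM for the 9 genes and 0.612 for the 93 genes. Of the 93 genes, 82 reached 1 RPKM per kilobase of exon, where 35.4% of all genes and 54.0% of protein-coding genes did. By deposited RPKM 38 of the 93 reached 1 RPKM per kilobase of whole gene, where 21.0% of all genes and 31.6% of protein-coding genes did.

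Per kilobase of exon 35.4% of all genes and 54.0% of protein-coding genes reached 1 RPKM. Of 16 secreted and other neurexin ligands, 13 did so, with a median of 5.57 RPKM on that scale. Clstn1, a calsyntenin that links adhesion to axonal transport, was the highest at 75.5 RPKM per kilobase of exon. Nxph3, a neurexophilin that binds alpha-neurexins, led by deposited value at 7.29 RPKM per kilobase of whole gene, and C1ql2 was lowest at 0.0567 RPKM per kilobase of whole gene. Lhfpl4, a linker of GABA receptors to Nlgn2 protein, stood at 19.3 RPKM per kilobase of exon, where Nlgn2 was 2.45-fold above it. Of the proteins that mask neuroligins, Mdga1 stood at 12.3 and Mdga2 at 0.992 RPKM per kilobase of exon.

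The scaffold of inhibitory synapses, gephyrin, is recruited by Nlgn2 protein. Gphn stood at 11.4 RPKM per kilobase of exon, and Nlgn2 was 4.15-fold above it on that scale. A level of 1 RPKM per kilobase of exon was reached by 35.4% of all genes and 54.0% of protein-coding genes. All 13 excitatory scaffold genes reached it, with a median of 6.74 RPKM. Dlgap4 was the highest of them at 34.1 RPKM per kilobase of exon, Dlg4, the PSD-95 gene whose product binds neuroligins, was highest by deposited value at 7.29 RPKM per kilobase of whole gene, and Dlgap2 was the lowest at 0.0149. On the presynaptic side, Cask, a scaffold that binds the neurexin tail, stood at 16.4 RPKM per kilobase of exon. Of the other genes of the neurexin scaffold list, Apba1 stood at 12.9 and Apba2 at 40.3 RPKM per kilobase of exon. Lin7a stood at 4.30, Lin7b at 2.28 and Lin7c at 44.6 RPKM per kilobase of exon.

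Khdrbs1, Khdrbs2 and Khdrbs3 encode RNA-binding proteins that regulate neurexin splicing. They stood at 49.4, 1.97 and 44.5 RPKM per kilobase of exon in that order. Khdrbs2 was thus the low one, and Khdrbs3 was 22.6-fold above it. Which neurexin splice forms were present cannot be read from gene-level values. Transmitter genes of both kinds of neuron were present per kilobase of exon, with Slc17a6 at 10.5 and Slc17a7 at 7.89 RPKM for glutamate transport into vesicles, and Slc32a1 at 4.04, Gad1 at 5.98 and Gad2 at 6.47 RPKM for GABA.

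**Figure D4:**
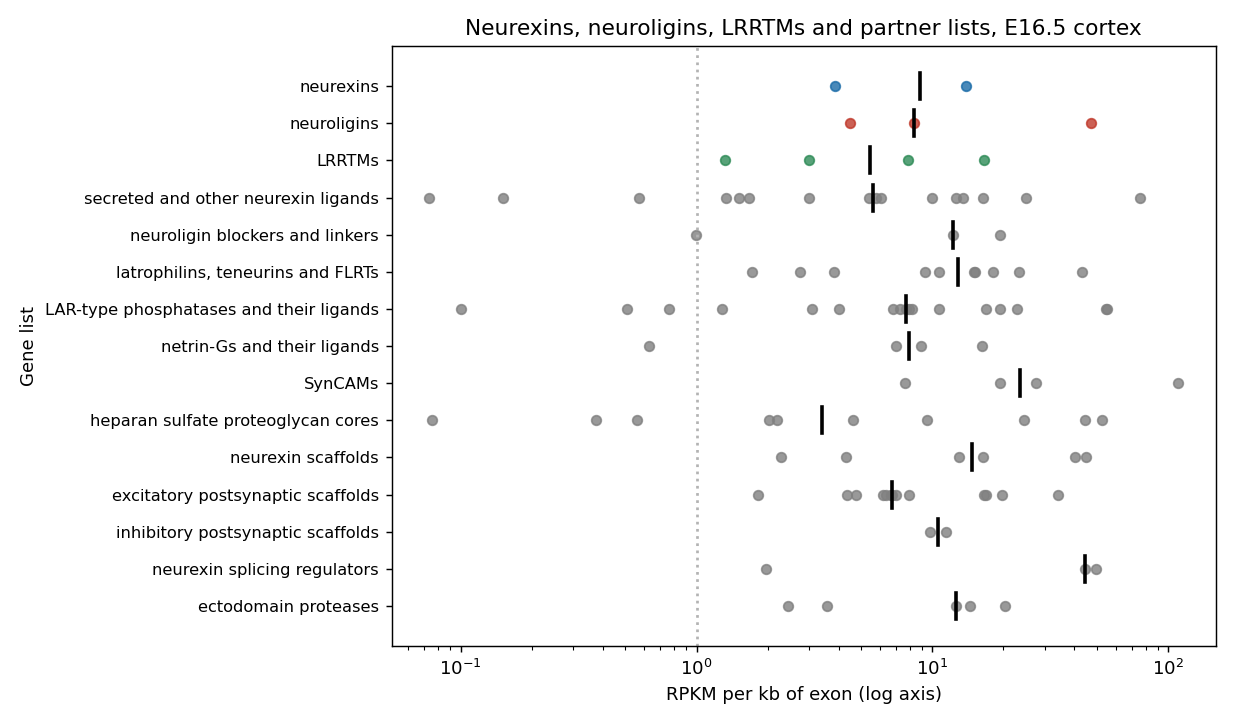
Level of each gene in RPKM per kilobase of exon (log axis) by list, with neurexins, neuroligins and LRRTMs in colour at the top and the 12 other lists in grey. Each point is a gene, black ticks are list medians and the dotted line is 1 RPKM. All 9 coloured points lie right of the dotted line, and Nlgn2 at 47.1 RPKM stands among the highest genes shown.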

How the data were processed

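Messenger RNA was sequenced, and the authors deposited a single mean RPKM per gene for embryonic cortex, which the labels' titles give 3 libraries. Per the submitters' processing notes, the tools of the series include HTSeq 0.6.0, DESeq 1.16.0, Cuffdiff 2.0.2 and the aligners TopHat2 2.0.9 and Bowtie2 2.1.0, with mm9 as build, and the part each played is not listed. Strand use and the treatment of multiply mapped reads are not given in the sources used here. The labels do not say which animals the 3 libraries came from.

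Symbols, spans and exons came from GENCODE M21, on a later build, and 5053 gene IDs with 2.30% of summed RPKM had no length there. Among low values of multi-exon genes, between 0.001 and 0.008 RPM, 658 of 779 (84.5%) lay within 0.5% of the worth of 1 read in 1 library with whole-gene span, against 35 of 1984 (1.76%) with exon length. With RefSeq spans 362 of 644 (56.2%) did, against 503 of 609 (82.6%) with GENCODE spans for genes that have both. The worth of 1 read was taken from the 3 fullest peaks found with GENCODE whole-gene spans, which also gave the depths. Exon length and RefSeq spans were scored on those same peaks, with no search for peaks of their own. Their lower shares are thus partly set by this choice. The peak search recovered simulated depths inside its range, but it cannot find a library under 41.7 M reads. A simulation with a shallower library failed for that reason. The simulated depths were then raised into the range, so their recovery cannot show that every real library lay inside it. Reads are RPKM times span times summed depth. Their exact Poisson 95% intervals, and those of ratios from a normal approximation on the log scale, cover counting error only.

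List medians used no test and the log2 scale a pseudocount of 0.1. Members and lists were chosen with earlier results of these data known. Named are all members, every gene of lists of up to 6, and of longer lists the highest and lowest by deposited value and the highest per kilobase of exon; some list genes are not reported here. Other genes of these families are not analysed here. Computations used Python 3.11.15, numpy 2.4.6, pandas 2.3.3 and scipy 1.17.1.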

Additional observations from a re-analysis of the deposited data

How the results depend on the processing

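The members' median exceeded the median of genes above 0 by 2.34 on the log2(RPKM + 0.1) scale. It did so by 2.66 per kilobase of exon, 2.48 per kilobase of the longest transcript, 3.80 in RPM, 1.05 and 2.73 with pseudocounts of 1 and 0.01, 1.53 among genes at 0.1 RPKM or more, 3.69 with zeros included, 1.56 against protein-coding genes, 1.01 with means and, chosen after seeing the data, 2.03 per kilobase of exon with RefSeq spans. Without the highest member of each family, a check that can only lower it, the difference turned to -0.90. Neurexins minus neuroligins, -2.70 as reported, was -0.19 per kilobase of exon, -1.27 and -3.55 with pseudocounts of 1 and 0.01, -2.20 at 0.1 RPKM or more, -2.19 with means and -2.44 without the highest members, and turned to 0.54 per kilobase of the longest transcript, 0.31 in RPM and 0.013 per kilobase of exon with RefSeq spans. Neuroligins minus LRRTMs, 1.94 as reported, was 0.77 per kilobase of exon, 0.78 per kilobase of the longest transcript, 1.65 in RPM, 0.85 and 2.42 with pseudocounts of 1 and 0.01, 0.51 at 0.1 RPKM or more, 1.30 with means and 0.50 per kilobase of exon with RefSeq spans. The count of 5 members at 1 RPKM was also 5 at a threshold of 0.1, and 9 per kilobase of exon with either span, per kilobase of the longest transcript and in RPM. Of 10 within-family ratios under 7 settings, 4 of 70 values turned, all for Lrrtm1 over Lrrtm2, which was -1.22 on the log2 scale as reported, 1.06 per kilobase of exon, 1.01 per kilobase of the longest transcript, 0.078 in RPM and 2.08 per kilobase of exon with RefSeq spans. Dividing by another length is what separates these scales. The cause of the other shifts was not tested.

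RefSeq spans, 1 of the 7 settings, cannot move ratios of deposited values. Counting intervals reached 0.867% to either side for Nlgn2 and 5.06% for Lrrtm4, and up to 9.73% if 1 library of 51.3 M reads had given all reads. Replicates could not be left out in turn, and the spread between libraries is unknown. No paired analysis was possible because the file holds 1 mean column and no value for a single library.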

Other observations

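Other adhesion systems of the synapse were also listed. On the exon scale 35.4% of all genes and 54.0% of protein-coding genes reached 1 RPKM. All 4 SynCAM genes, immunoglobulin adhesion molecules, passed 1 RPKM per kilobase of exon, with Cadm4 at 110, Cadm3 at 27.6, Cadm1 at 19.3 and Cadm2 at 7.62 RPKM. All 10 latrophilin, teneurin and FLRT genes did so as well, from Adgrl1, a latrophilin gene, at 43.0 RPKM per kilobase of exon, which also led by deposited value at 8.82 RPKM per kilobase of whole gene, to Tenm1 at 1.72 RPKM per kilobase of exon. Of 17 LAR-type phosphatases and their ligands 14 passed, and the phosphatase gene Ptprs stood at 54.8 RPKM per kilobase of exon. In that list Lrfn4 led by deposited value at 19.7 RPKM per kilobase of whole gene, and Il1rapl1, a very long gene, was lowest at 0.00345 RPKM per kilobase of whole gene, with 0.508 RPKM per kilobase of exon. Of the netrin-G genes and their ligands, Ntng2 stood at 16.3, Lrrc4 at 8.92, Lrrc4c at 7.02 and Ntng1 at 0.626 RPKM per kilobase of exon.

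Of 10 heparan sulfate proteoglycan genes, some of whose products bind LRRTM4, 7 passed 1 RPKM per kilobase of exon. The shares at that level were 35.4% of all genes and 54.0% of protein-coding genes. Sdc3 was the highest of the 10 at 52.4 RPKM per kilobase of exon and Gpc5 the lowest at 0.0757. Gpc2 was the highest by deposited value at 29.8 RPKM per kilobase of whole gene. Of the proteases known to cut neurexins, neuroligins or other synaptic proteins, Adam10 stood at 20.3, Bace1 at 14.4, Adam17 at 3.59 and Mmp9 at 2.43 RPKM per kilobase of exon.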
